A study of Oryctolagus cuniculus with 6 samples.

Results

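This account follows the genes that copy DNA in S phase, from origin recognition to nucleotide supply, in rabbit tracheal mucosa after an endotracheal tube cuff had been inflated to high pressure. A list of 52 gene symbols was matched by name to the deposited gene table, and 46 of its 29587 rows carried one of them. The other 6 (MCM6, CDC45, POLD1, E2F1, CHAF1A and UHRF1) had no row under their symbol and were not analysed here. Of the 46, 45 passed the filter on low counts and were tested among 13724 genes, and CCNE2 did not pass it.

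Rabbits of the New Zealand breed, 3 months old, gave tracheal mucosa from which polyA RNA was sequenced in 6 libraries. The high cuff pressure group (n = 3) had a 3.0 mm cuffed tube placed at a depth of 13 cm, with the cuff held at 35 cmH2O for 2 h, and the control group had n = 3. How the control rabbits were handled and the time of sampling are not stated. Both trachea and epithelial cell appear in the labels as the source, and every library belongs to batch 1. Nothing in them ties each library to a rabbit of its own, so a p-value here measures the spread among libraries, which may be technical.

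Before a cell can copy its genome, the origin recognition complex (ORC) marks start sites, and CDC6 and CDT1 load the MCM helicase there while geminin holds CDT1 in check. The kinase CDC7 with its partner DBF4, helped by MCM10, then allows the GINS complex and CDC45 to join the helicase, and polymerases alpha, delta and epsilon begin synthesis with the sliding clamp PCNA. Ribonucleotide reductase, thymidylate synthase and thymidine kinase provide the DNA building blocks. In the airway, the dividing cells of the resting epithelium are few, and basal cells are known to enter the cycle after the lining is damaged.

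The libraries held 10501734 to 14415754 counts, so 3 counts, the floor used here for a gene not seen, stood for 0.208 to 0.286 CPM (counts scaled to a common library total). Levels below are CPM adjusted by TMM factors, a scaling that centres the fold changes of most genes, in the order of replicates 1, 2 and 3, unless FPKM is named. The floor above was not adjusted by these factors, so it is only a rough guide beside these levels. All 5 general epithelial markers with a row (EPCAM, CDH1, KRT8, CLDN4, ELF3) were present in every library, with summed levels of 1775 to 1970 CPM under high cuff pressure and 1299 to 1407 CPM in control. Smooth muscle markers were also abundant, at 417, 3553 and 6245 CPM under high cuff pressure and 4835 to 8015 CPM in control, so the samples held more than epithelium. High cuff pressure replicate 1 stood apart by that low smooth muscle sum and by the highest neutrophil sum. Mitochondrial genes took 27.8% to 30.5% of counts under high cuff pressure and 5.28% to 11.5% in control (exact permutation test, two-sided p = 0.1, the smallest that 3 against 3 libraries allow). With mitochondrial genes left out, the number of replication genes called higher was still 20.

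The replication genes were higher under high cuff pressure as a group, and genes called by edgeR were found at every step except the ORC, where DESeq2 called ORC1 and ORC6. With edgeR's quasi-likelihood test and an adjusted p under 0.05, 20 of the 45 tested genes rose (44.4%), against 3.67% of all genes tested. In the other direction edgeR called 0, against 1.62% of all genes; 2 were lower at an unadjusted p under 0.05 (ORC3 and RFC1), and DESeq2 also called 0 lower, against 8.53% of all genes. DESeq2 called 28 higher (62.2%), against 10.6% of all genes. An unadjusted edgeR p under 0.05 in either direction was found for 31 of the 45 genes and for 4015 of the 13724 genes tested. The median log2 fold change of the 45 was 1.54, with a range from -0.97 to 4.70, and the median of all genes tested was -0.01. In 30 of the 45 genes (66.7%) the 3 high cuff pressure libraries all lay above the 3 controls, which was so for 18.6% of all genes, and in 2 they all lay below, which was so for 18.7%. In these bulk samples, more cells in S phase and more RNA per such cell cannot be told apart.

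The number of calls depended on single libraries. Without high cuff pressure replicate 1, edgeR called 28 of the 45 higher and ORC2 lower, and without high cuff pressure replicate 3 it called 8 higher (CDC6, CDT1, MCM10, GINS1, GINS4, LIG1, RRM2 and TK1). Without control replicate 1 it called only CDT1 and TK1. Without high cuff pressure replicate 2, control replicate 2 or control replicate 3 it called 0 of the replication genes. Over all genes it then called 3 higher and 1 lower in the first of these fits and 0 in the others. At an unadjusted p under 0.05, 29, 28 and 27 of the replication genes were higher. Over all genes 3081 of 14051, 2691 of 13993 and 2496 of 13974 had such a p in either direction. No other tool was run on 5 libraries. Over these 6 fits the median log2 fold change of the genes lay between 1.16 and 1.79. Single genes moved too without high cuff pressure replicate 3. Among genes not called, POLA1 went from 0.77 to 0.01, PRIM1 from 0.84 to 0.36 and ORC1 from 1.64 to 1.03. Among called genes, MCM2 went from 2.82 to 1.96. POLD3, not called, changed sign without high cuff pressure replicate 2. When libraries were scaled by total counts alone, the median of all genes moved to -0.40 and the calls over all genes went from 503 higher and 222 lower to 389 higher and 1241 lower. Among the replication genes this scaling gave 16 higher and 1 lower (ORC3), and 39 of the 45 lay above the median of all genes, as they did under TMM.

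**Figure D1:**
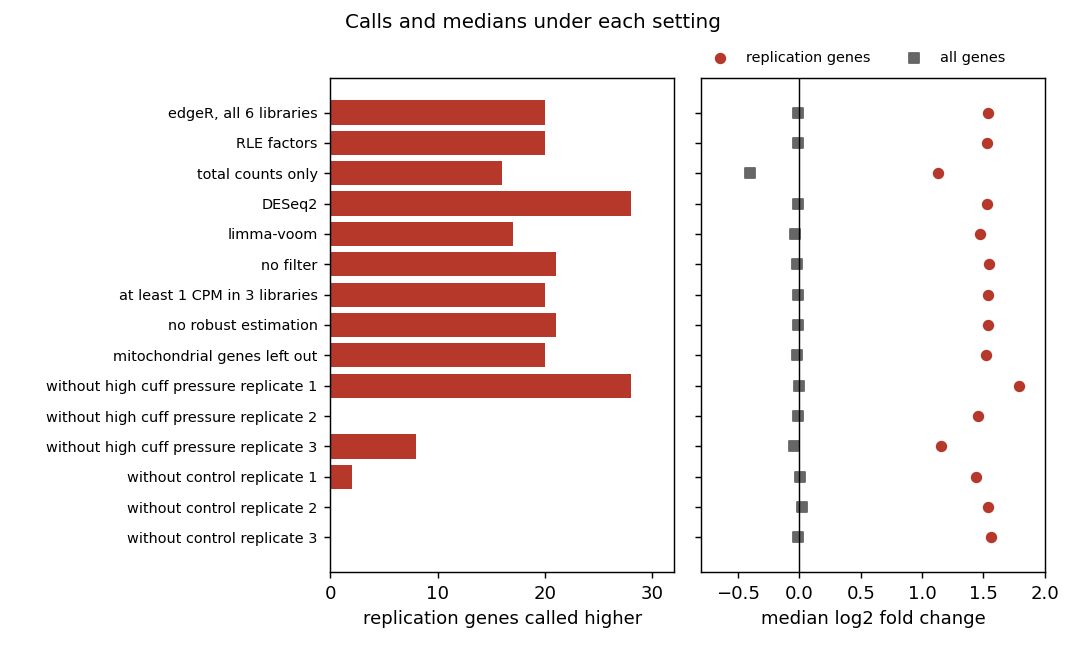
Number of replication genes called higher (left, bars from 0) under the ways of processing. The right side gives the median log2 fold change of the replication genes and of all genes tested (points). The fit with a replicate block, which called 11 replication genes higher, is not drawn. The bars run from 0 to 28 as libraries are left out, and the medians of the replication genes stay between 1.13 and 1.79.

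**Figure D2:**
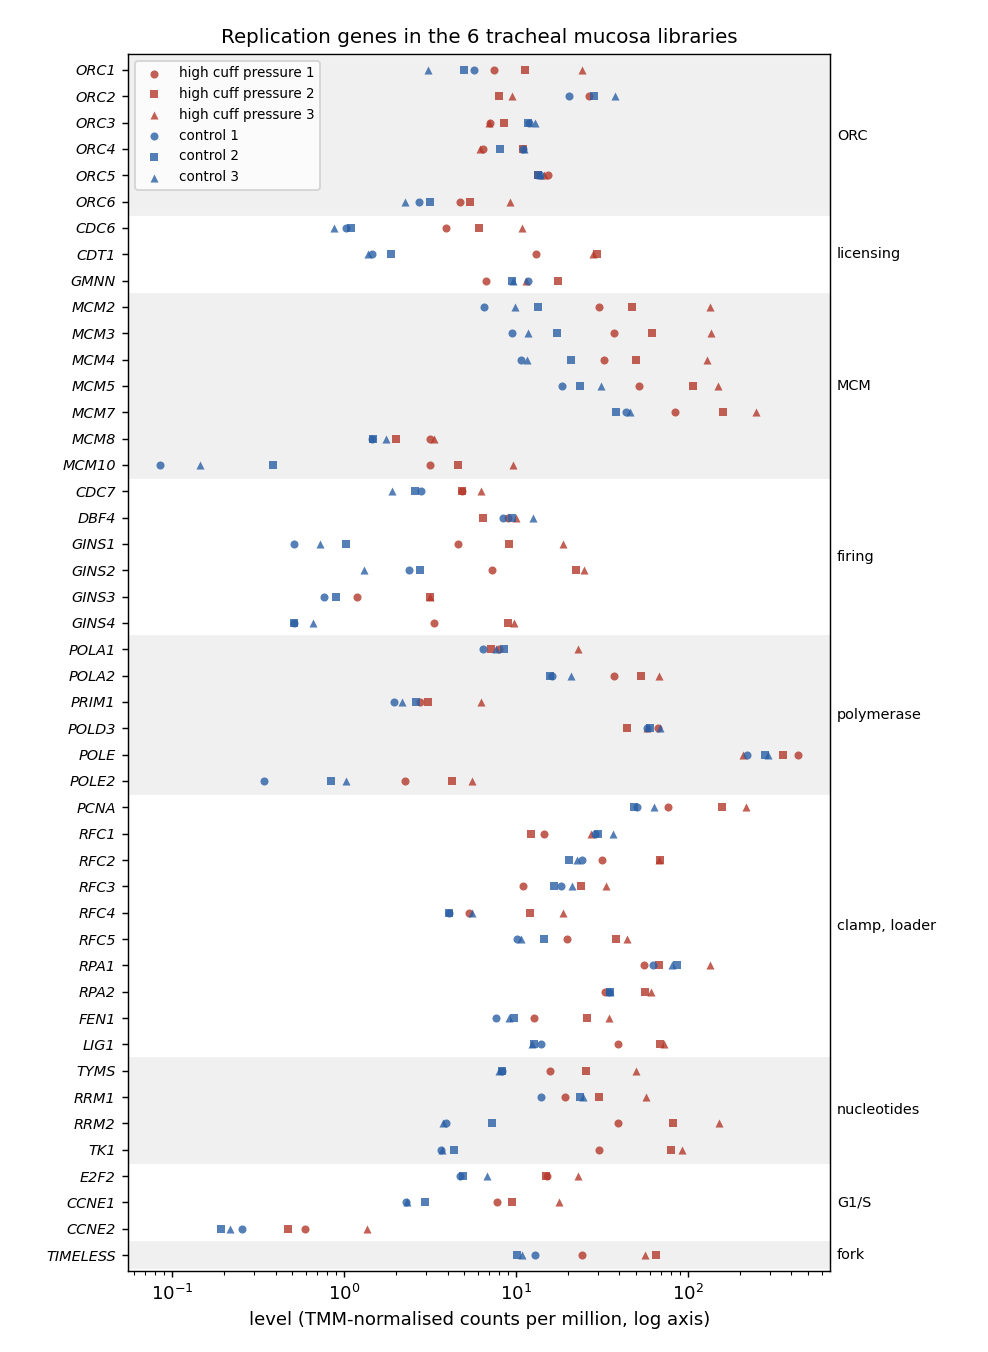
Level of each of the 46 replication genes in TMM-normalised CPM (log axis) in every library, with high cuff pressure in red, control in blue and the marker giving the replicate. GINS3 in control replicate 3 had 0 counts and is not drawn. Red points lie to the right of blue ones for most genes outside the ORC, and high cuff pressure replicate 3 is often the rightmost.

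The high cuff pressure libraries differed among themselves. Replicate 3 held the highest level of all 6 libraries for 33 of the 45 tested genes, and replicate 1 was the lowest of its group for 33. The summed level over the genes was 1370, 1908 and 2537 CPM under high cuff pressure and 794, 923 and 972 CPM in control. Several marker lists also differed among these libraries, as the plot of summed levels by library shows. Their counts stand beside shares over all genes of 3.67% higher and 1.62% lower by edgeR. By DESeq2 these shares were 10.6% and 8.53%. Groups without overlap were found in 18.6% of all genes for higher and 18.7% for lower. Neutrophil markers, of which 5 of 6 tested rose, summed to 6790, 3607 and 1481 CPM under high cuff pressure and to 74.5, 6.82 and 422 CPM in control, while MPO, made by neutrophil precursors, had 0 counts in 5 of the 6 libraries. Both the neutrophil and the replication sums were higher in every high cuff pressure library than in any control, and among those 3 libraries replicate 1 had the highest neutrophil sum and the lowest replication sum. Of the monocyte and macrophage markers 4 of 8 rose by edgeR (CD14, CD68, CSF1R and MARCO) and 5 by DESeq2. The list summed to 201 to 222 CPM under high cuff pressure and 61.5 to 127 CPM in control. On the same list C1QA (log2 fold change -1.05), C1QB (-0.93) and C1QC (-0.80) were negative, overlapped between groups and were not called. The endothelial marker PECAM1 rose (log2 fold change 1.53), 1 of 5 on its list, and the fibroblast marker LUM fell (-1.86), 1 of 6 on its list. Under high cuff pressure the endothelial list summed to 468, 944 and 1017 CPM and the fibroblast list to 260, 972 and 1457 CPM. Both sums overlapped the controls (230 to 685 CPM and 1019 to 1933 CPM). Of the basal epithelial markers edgeR called 0 of 5, and DESeq2 called 1 higher and 1 lower. An unadjusted edgeR p under 0.05 was found for 2 of 5, against 4015 of the 13724 genes tested. The list summed to 660, 1134 and 2819 CPM against 773, 780 and 591 CPM. In high cuff pressure replicate 1 that sum lay within the control range. KRT5, a keratin of basal cells, made up much of it, at 387, 945 and 2374 CPM against 327, 259 and 124 CPM (edgeR adjusted p = 0.073). Of the other markers of the list, DST lay lower without overlap (log2 fold change -0.99). TP63 (0.03), NGFR (0.01) and ITGA6 (0.81) overlapped between groups. Like KRT5, these overlapping markers had their highest level in high cuff pressure replicate 3 (57.0 CPM for TP63, 37.7 for NGFR and 78.0 for ITGA6). Multiciliated markers summed to 1560, 1547 and 602 CPM against 1746, 2605 and 2538 CPM. On that list DNAH5 (-2.05) and CCDC39 (-2.11) lay lower without overlap, while FOXJ1, DNAI1, RSPH1, TEKT1 and MCIDAS overlapped, and edgeR called 0 of 7. B cell and plasma cell markers fell in 2 of 5 tested genes and summed to 108 to 222 CPM against 479 to 1212 CPM. JCHAIN made up most of that sum, at 107, 98.1 and 210 CPM against 1039, 434 and 1173 CPM. The part of these cell types in the replication genes' levels was not tested.

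**Figure D3:**
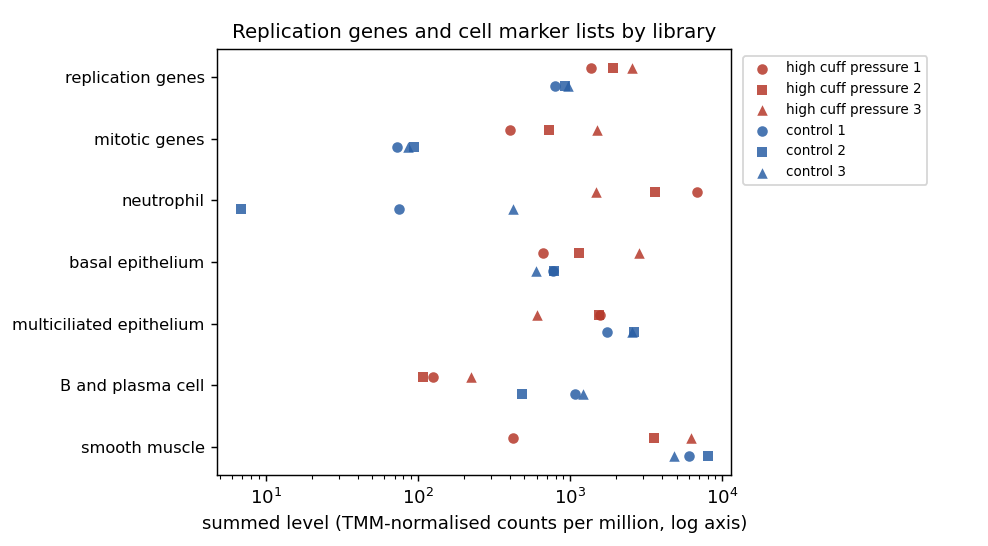
Summed level of the replication genes, of mitotic genes and of 5 cell marker lists in TMM-normalised CPM (log axis), by library. Among the high cuff pressure libraries, replicate 3 is highest for the replication genes, mitotic genes and the basal, smooth muscle, and B and plasma cell markers. It is lowest for the multiciliated markers and for the neutrophil markers (1481 CPM, against 6790 CPM in replicate 1).

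The ORC subunits differed in sign among themselves. ORC1, the ATPase subunit whose level is known to vary through the cycle, stood at 7.49, 11.3 and 24.2 CPM under high cuff pressure and at 5.73, 5.02 and 3.06 CPM in control. ORC6, the smallest subunit, stood at 4.73, 5.41 and 9.24 CPM against 2.73, 3.15 and 2.26 CPM. Neither pair of groups overlapped, but edgeR did not call them (log2 fold change 1.64 ± 0.49 SE and adjusted p = 0.081 for ORC1, and 1.25 ± 0.39 and adjusted p = 0.087 for ORC6), whereas DESeq2 did. The core subunit ORC3 lay lower without overlap, at 7.10, 8.47 and 6.97 CPM against 11.9, 11.8 and 13.0 CPM (log2 fold change -0.70 ± 0.26, edgeR adjusted p = 0.13). ORC2 read 26.5, 8 and 9.55 CPM against 20.4, 28.5 and 37.6 CPM, so the groups overlapped through high cuff pressure replicate 1. Without that library its log2 fold change moved from -0.97 to -1.71 and edgeR called it lower. ORC4 and ORC5 overlapped between groups, and ORC5 was close to level in all 6 libraries, at 13.4 to 15.3 CPM. Thus edgeR called 0 of the 6 ORC genes, against 3.67% of all genes higher and 1.62% lower. An unadjusted edgeR p under 0.05 was found for 3, against 4015 of the 13724 genes tested. DESeq2 called 2 higher, against 10.6% of all genes, and the median log2 fold change was -0.14.

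Both loading factors rose strongly. CDT1 (ENSOCUG00000024118, on an unplaced scaffold) stood at 13.1, 29.4 and 28.1 CPM under high cuff pressure and at 1.45, 1.87 and 1.38 CPM in control. CDC6 (ENSOCUG00000004898, chromosome 19, 41453402 to 41467179) stood at 3.94, 6.12 and 10.9 CPM against 1.03, 1.09 and 0.875 CPM. The groups lay far apart for both genes, with log2 fold changes of 3.90 ± 0.41 for CDT1 (edgeR adjusted p = 0.014) and 2.80 ± 0.48 for CDC6 (edgeR adjusted p = 0.029). GMNN, which encodes the CDT1 inhibitor geminin, read 6.70, 17.7 and 11.4 CPM against 11.8, 9.46 and 9.62 CPM. Its groups overlapped, its log2 fold change was 0.21 ± 0.38, and the sign changed with total counts or without high cuff pressure replicate 2.

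Of the 5 helicase genes with a row, 4 rose and the fifth lay just outside the threshold. MCM2 (ENSOCUG00000015924, chromosome 9, 6675007 to 6697311) stood at 30.5, 47.2 and 134 CPM under high cuff pressure and at 6.49, 13.5 and 9.91 CPM in control. MCM3 gave 37.0, 61.5 and 137 CPM against 9.49, 17.2 and 11.7 CPM. MCM4, at 32.6, 50.0 and 130 CPM against 10.8, 20.8 and 11.7 CPM, was separated as well but missed the threshold (edgeR adjusted p = 0.052). In all 3 genes the control with the highest level was replicate 2 and the high cuff pressure library with the highest level was replicate 3. MCM5 followed at 51.7, 108 and 150 CPM against 18.5, 23.7 and 31.1 CPM, and MCM7 at 84.7, 159 and 248 CPM against 43.4, 38.4 and 45.8 CPM. Log2 fold changes were 2.82 ± 0.58 for MCM2, 2.61 ± 0.50 for MCM3, 2.30 ± 0.54 for MCM4, 2.08 ± 0.41 for MCM5 and 1.95 ± 0.37 for MCM7, and edgeR called all but MCM4. Per length, on the authors' FPKM scale, the mean level was highest for MCM7 in both groups (61.2 and 20.8 FPKM) and lowest for MCM2 (13.7 and 2.54 FPKM).

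The other genes with the MCM name, MCM10 and MCM8, both lay higher without overlap, and edgeR called only MCM10. MCM10, a firing factor outside the ring, had the largest fold change of all tested replication genes, at 3.15, 4.59 and 9.62 CPM against 0.0855, 0.386 and 0.146 CPM (log2 fold change 4.70 ± 0.70, edgeR adjusted p = 0.020). The control values rested on 1, 6 and 2 counts, so the size of that fold is poorly fixed. MCM8, which acts in recombination repair, lay at 3.15, 2.00 and 3.33 CPM against 1.45, 1.48 and 1.75 CPM without overlap and was not called (log2 fold change 0.86 ± 0.39).

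Of the 6 firing factors edgeR called 3 higher, against 3.67% of all genes, and DESeq2 called 4 higher, against 10.6%. The GINS ring is part of the active helicase, and 3 of its 4 genes rose. GINS1 gave 4.63, 9.06 and 18.8 CPM against 0.513, 1.03 and 0.729 CPM, GINS2 gave 7.29, 22.2 and 25 CPM against 2.39, 2.77 and 1.31 CPM, and GINS4 gave 3.35, 8.94 and 9.70 CPM against 0.513, 0.515 and 0.656 CPM. The corresponding log2 fold changes were 3.81 ± 0.61, 3.07 ± 0.54 and 3.68 ± 0.53, with edgeR adjusted p values of 0.023, 0.032 and 0.018. GINS3, at 1.18, 3.18 and 3.18 CPM against 0.769, 0.901 and 0 CPM, was not called (log2 fold change 2.15 ± 0.90, edgeR adjusted p = 0.16). CDC7 was separated at 4.83, 4.82 and 6.29 CPM against 2.82, 2.57 and 1.90 CPM, with an adjusted p of 0.087 by edgeR and 0.027 by DESeq2. Its activating partner DBF4 overlapped between groups, with means of 8.48 ± 1.81 CPM and 10.1 ± 2.15 CPM (SD, n = 3 each).

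Of the 6 polymerase and primase genes measured, 2 rose, both of them B subunits, and the median log2 fold change was 0.80. POLA2, the B subunit of polymerase alpha, rose from 16.2, 15.7 and 20.9 CPM in control to 37.2, 53.3 and 68.1 CPM (log2 fold change 1.59 ± 0.29, edgeR adjusted p = 0.033). POLE2, the B subunit of polymerase epsilon, rose from 0.342, 0.837 and 1.02 CPM to 2.27, 4.24 and 5.53 CPM (log2 fold change 2.42 ± 0.55, edgeR adjusted p = 0.048). The catalytic subunit genes POLA1 and POLE overlapped between groups, POLA1 being high in high cuff pressure replicate 3 alone (7.98, 7.18 and 23.1 CPM against 6.41, 8.49 and 7.65 CPM). POLE read 437, 360 and 210 CPM against 222, 279 and 291 CPM, and its lowest library was high cuff pressure replicate 3, where most other replication genes were highest. PRIM1, the primase catalytic subunit, lay at 2.76, 3.06 and 6.29 CPM against 1.97, 2.64 and 2.19 CPM, barely separated and not called. POLD3, an accessory subunit of polymerase delta, overlapped at 44.5 to 67.1 CPM against 57.5 to 68.6 CPM.

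**Figure D4:**
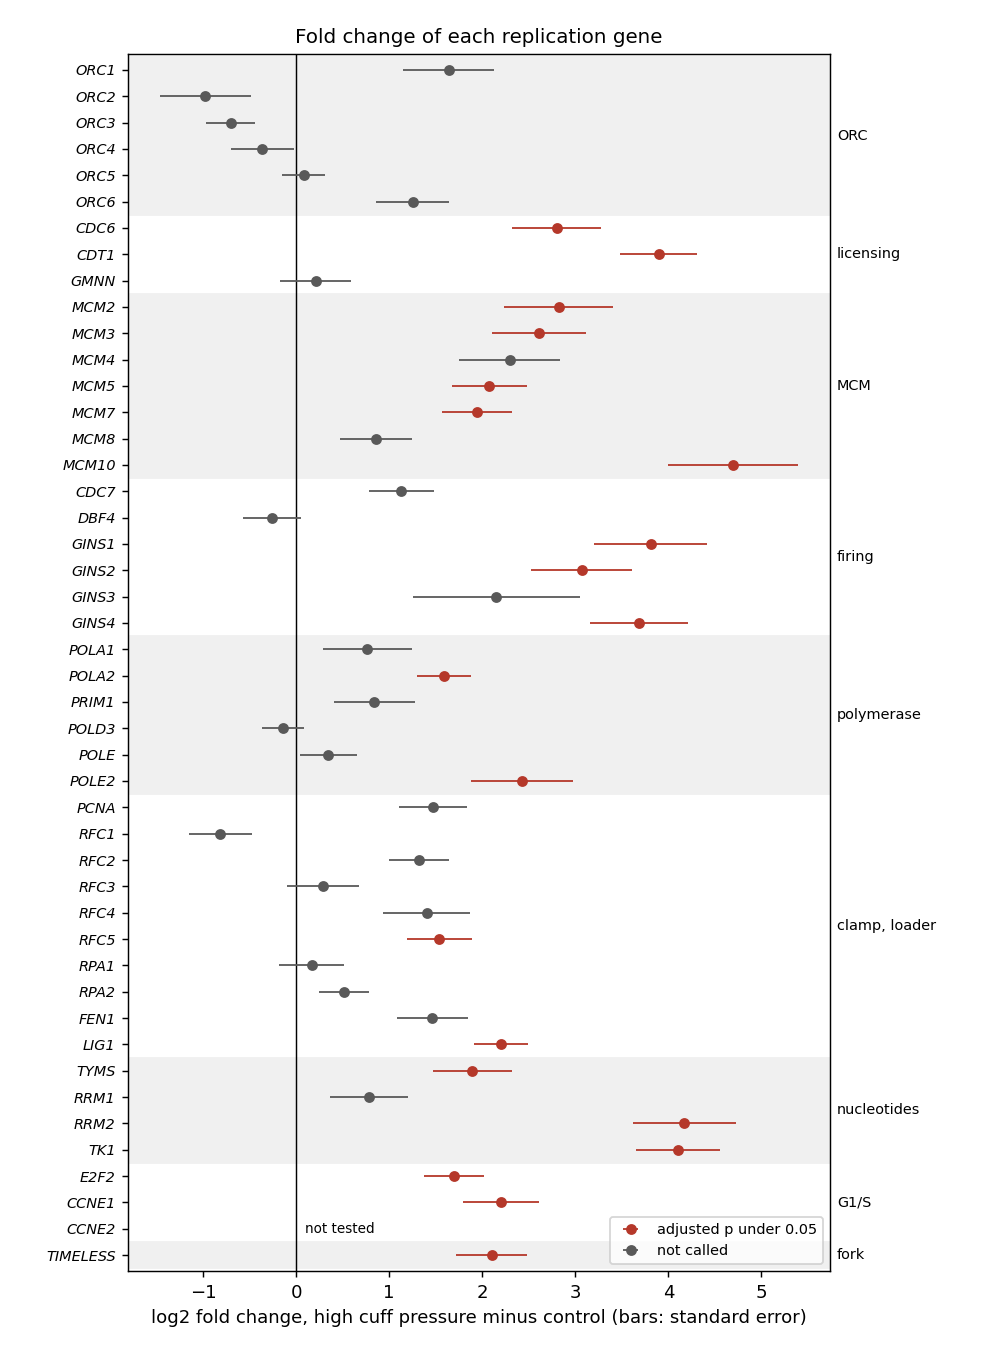
Log2 fold change of each replication gene, high cuff pressure minus control, with its standard error, grouped by role. Red marks the 20 genes with an edgeR adjusted p under 0.05. The values run from -0.97 for ORC2 to 4.70 for MCM10, and CCNE2 was not tested.

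At the clamp and its loader most genes were higher, but few passed the threshold. PCNA, the sliding clamp and a common stain for cycling cells, stood at 76.3, 157 and 217 CPM under high cuff pressure and at 50.4, 48.8 and 63.3 CPM in control. Its groups did not overlap and its log2 fold change was 1.47 ± 0.37, with an adjusted p of 0.058 by edgeR and 0.0040 by DESeq2. On the FPKM scale it was the most abundant of the replication genes in both groups, at means of 114 and 54.0 FPKM. Of the clamp loader genes only RFC5 was called by edgeR, at 19.8, 38.1 and 44.2 CPM against 10.1, 14.5 and 10.6 CPM (log2 fold change 1.54 ± 0.35, adjusted p = 0.048). RFC2 (1.32 ± 0.33, edgeR adjusted p = 0.057) and RFC4 (1.40 ± 0.47, edgeR adjusted p = 0.10) were called by DESeq2 and not by edgeR. The large subunit RFC1 lay lower without overlap, at 14.6, 12.2 and 27.5 CPM against 28.8, 30.1 and 36.9 CPM (log2 fold change -0.81 ± 0.34, edgeR adjusted p = 0.16). RFC3 overlapped between groups, and its sign changed with total counts or without high cuff pressure replicate 3.

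Factors of single-stranded DNA and of the lagging strand differed too. LIG1, the ligase that seals Okazaki fragments, stood at 39.4, 68.4 and 72.3 CPM under high cuff pressure and at 13.9, 12.8 and 12.5 CPM in control. The controls lay close together and far below the other group (log2 fold change 2.20 ± 0.29, edgeR adjusted p = 0.017). FEN1, the nuclease that trims the same fragments, was separated at 12.8, 25.8 and 34.8 CPM against 7.69, 9.78 and 9.11 CPM and missed the threshold (1.46 ± 0.38, edgeR adjusted p = 0.062). The genes of the single-strand binding protein RPA overlapped: RPA1 lay at 55.8, 68.1 and 135 CPM against 62.6, 86.7 and 81.3 CPM, and RPA2 at 32.8, 56.4 and 61.0 CPM against 34.8, 35.0 and 35.1 CPM. RPA1 changed sign with total counts or without high cuff pressure replicate 3.

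Nucleotide supply held the largest changes after MCM10. RRM2, the small subunit of ribonucleotide reductase, stood at 39.1, 81.9 and 151 CPM under high cuff pressure and at 3.93, 7.27 and 3.79 CPM in control (log2 fold change 4.17 ± 0.55, edgeR adjusted p = 0.017). TK1, the thymidine kinase of dividing cells, stood at 30.5, 80.1 and 92.4 CPM against 3.67, 4.38 and 3.72 CPM (4.10 ± 0.45, edgeR adjusted p = 0.016). In each of these genes the lowest high cuff pressure library was more than 5 times the highest control. TYMS, the thymidylate synthase, rose from 8.29, 8.30 and 8.02 CPM to 15.9, 25.5 and 50.0 CPM (1.89 ± 0.42, edgeR adjusted p = 0.047). RRM1, the large subunit of the reductase, overlapped at 19.3, 30.5 and 57.0 CPM against 14, 23.5 and 24.6 CPM (0.78 ± 0.42), a value that dropped to 0.27 without high cuff pressure replicate 3. Spans of TK1, TYMS, MCM4, FEN1, ORC3 and CDT1 overlap other rows of the table, and whether counting used strand is not stated. The named genes on the opposite strand at TK1 (SYNGR2 and AFMID), TYMS (ENOSF1), MCM4 (PRKDC), FEN1 (FADS3) and ORC3 (RARS2) had log2 fold changes between -0.48 and 0.34 and were not called. The row at CDT1, also on the opposite strand, has no symbol. Its mean level over the libraries was 6.64 CPM, above that of CDT1 in control, and its fold change was not examined.

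At the entry to S phase, both tested genes rose. E2F2, a transcription factor of the activating E2F class, stood at 15.1, 14.9 and 23.1 CPM under high cuff pressure and at 4.70, 4.89 and 6.78 CPM in control (log2 fold change 1.70 ± 0.32, edgeR adjusted p = 0.034). CCNE1, the cyclin E1 that activates CDK2, stood at 7.79, 9.53 and 17.8 CPM against 2.31, 2.96 and 2.33 CPM (2.21 ± 0.41, edgeR adjusted p = 0.034). CCNE2, the other cyclin E, had 6, 4 and 18 counts against 3, 3 and 3 and was too low to be tested. TIMELESS, of the fork protection complex, rose from 12.9, 10.2 and 10.9 CPM to 24.2, 64.8 and 56.6 CPM (2.10 ± 0.38, edgeR adjusted p = 0.033).

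Partners of one complex or step can be set against each other within a library, which removes the scaling between libraries. These pairs were chosen after their values had been seen, so the ratios are a description without a test. On the FPKM scale the ratio of RRM2 to RRM1 was 4.005, 5.31 and 5.23 under high cuff pressure and 0.555, 0.612 and 0.305 in control. For CDT1 to its inhibitor GMNN the ratio was 0.710, 0.605 and 0.892 against 0.0447, 0.0716 and 0.0522. RFC5 to RFC1 gave 2.47, 5.66 and 2.92 against 0.636, 0.875 and 0.524. The groups did not overlap in any of these ratios, and the ratios of RRM2 and CDT1 spread less among the high cuff pressure libraries than their levels did (17 to 66.9 FPKM for RRM2 and 6.67 to 14.7 FPKM for CDT1). CDC7 to DBF4 ran from 1.10 to 1.52 against 0.308 to 0.687, and POLE2 to POLE from 0.0449 to 0.228 against 0.0134 to 0.0303. ORC1 to ORC2 was 0.196, 0.979 and 1.76 against 0.194, 0.122 and 0.0565, so high cuff pressure replicate 1 was almost at the level of control replicate 1. LIG1 to FEN1 ran from 0.885 to 1.31 against 0.558 to 0.771. MCM7 to MCM2 overlapped between the groups, at 5.44, 6.59 and 3.61 against 13.1, 5.55 and 9.03.

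**Figure D5:**
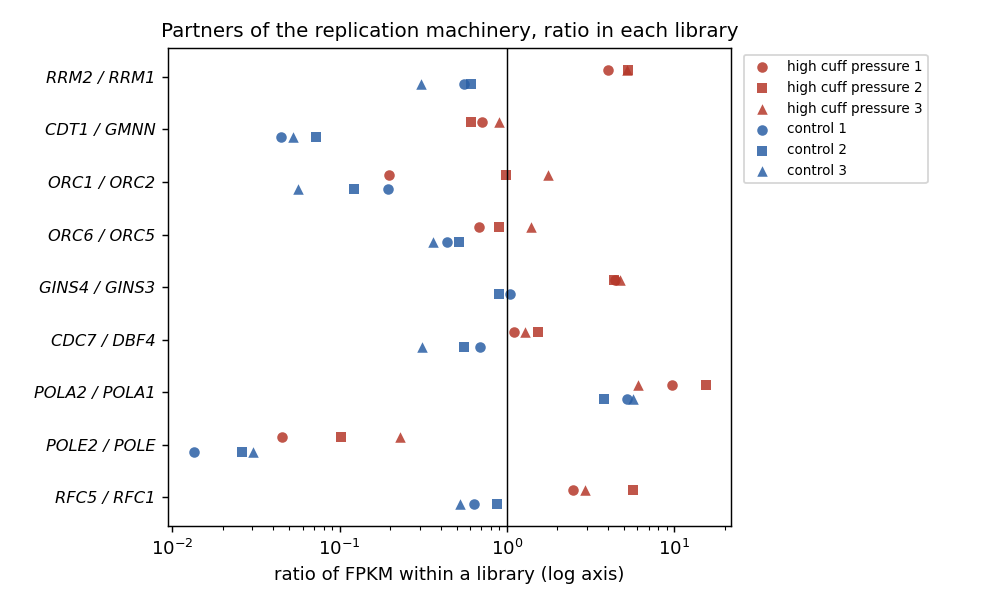
Ratio of FPKM between partners of the replication machinery within each library (log axis), high cuff pressure in red and control in blue, the marker giving the replicate. RRM2 to RRM1 lies at 4.005 or more in the high cuff pressure libraries and at 0.612 or less in the controls, while ORC1 to ORC2 nearly meets at 0.196 and 0.194. GINS4 to GINS3 has no point for control replicate 3, where GINS3 had 0 counts. The ratios of LIG1 to FEN1 and of MCM7 to MCM2, the latter overlapping between the groups, are not drawn.

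Other genes of the same pathways, taken from lists wider than the 52, were called as follows. Over all genes, edgeR called 3.67% higher and 1.62% lower, and DESeq2 called 10.6% higher and 8.53% lower. An unadjusted edgeR p under 0.05 in either direction was found for 4015 of the 13724 genes tested. Of 25 further replication factors, 5 rose by edgeR (20%) and 0 fell (13 with an unadjusted p under 0.05 in either direction; DESeq2 called 8 higher and 2 lower), and their median log2 fold change was 0.52. The 5 were the histone chaperone ASF1B (4.19), the checkpoint mediator CLSPN (4.11), MTBP (3.51), the ubiquitin ligase subunit DTL (2.71) and the nuclease and helicase DNA2 (2.51). Of 11 other nucleotide supply genes only the thymidylate kinase DTYMK was called by edgeR, at 24.0, 64.5 and 51.1 CPM against 10.9, 8.37 and 11.3 CPM (9.09% of the list). There 6 had an unadjusted p under 0.05, DESeq2 called 5 higher, and the median was 0.59. In the E2F and RB network, 2 of 18 rose by edgeR (11.1%), the transcription factor MYBL2 (3.92) and the phosphatase CDC25A (2.40), while DESeq2 called 6 higher and 1 lower (RBL2), and the median was 0.86. CDK2, the kinase bound by cyclin E, was separated without a call (16.6, 44.95 and 62.2 CPM against 14.8, 11.3 and 7.65 CPM, edgeR adjusted p = 0.063). The pocket protein gene RB1 lay lower at 22.8, 9.30 and 18.6 CPM against 29.1, 30.8 and 33.9 CPM without a call (log2 fold change -0.88), and MYC overlapped between groups (0.99).

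Of the CDK inhibitors, which hold cells before S phase, edgeR called 0 of 6, and DESeq2 called 3 higher and 1 lower. Over all genes, edgeR called 3.67% higher and 1.62% lower, and DESeq2 10.6% and 8.53%. An unadjusted edgeR p under 0.05 was found for 4 of 6, against 4015 of the 13724 genes tested. The fold changes were positive in 3 and negative in 3. CDKN1A (p21) read 76.6, 68.6 and 66.3 CPM under high cuff pressure and 50.7, 45.9 and 44.6 CPM in control (log2 fold change 0.58, edgeR adjusted p = 0.098). CDKN1B (p27), the one that DESeq2 called lower, read 3.35, 4.24 and 4.70 CPM against 9.49, 10.1 and 9.84 CPM (-1.26, edgeR adjusted p = 0.052). Both were separated between the groups, as was CDKN2B, at 3.79 to 7.79 CPM against 9.33 CPM or more (-0.78, edgeR adjusted p = 0.18). CDKN2D was separated too and lay higher, at 8.48, 11.3 and 5.68 CPM against 4.36, 2.83 and 2.99 CPM (1.32, edgeR adjusted p = 0.076). CDKN2C (1.40, edgeR adjusted p = 0.11) and CDKN2A (-0.36) overlapped between groups. DESeq2 called CDKN1A, CDKN2C and CDKN2D higher.

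Genes of mitosis, the phase that follows, were higher too. EdgeR called 20 of 24 higher (83.3%, against 3.67% of all genes), and the median log2 fold change was 3.33. The mitotic kinase AURKB gave 18.7, 50.5 and 59.1 CPM against 1.45, 1.74 and 1.09 CPM (4.89), and MKI67, the Ki-67 antigen, gave 59.8, 36.1 and 85.6 CPM against 7.01, 9.20 and 8.31 CPM (2.89). TOP2A, which untangles replicated chromosomes, gave 18.1, 30.4 and 75.4 CPM against 2.91, 6.05 and 4.23 CPM (3.23). As for the replication genes, their sum was highest in high cuff pressure replicate 3 and lowest of that group in replicate 1, at 402, 726 and 1496 CPM against 73.0 to 93.9 CPM. Whether the mitotic and replication lists differed from each other was not tested.

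The authors' deposited table of the same comparison marked 24 of the replication genes as up (52.2% of the 46), against 3.97% of its 19001 genes, and 0 as down, against 3.67%. In that same source, the authors' deposited table, 25 of the 45 tested replication genes had a q-value under 0.05. The share of all its genes under that q-value was not computed, so this count has no background beside it. The authors' deposited table of Gene Ontology terms listed 12 changed genes of 19 under DNA replication initiation, 12 of them up. Under DNA replication it listed 41 of 211, with 35 up and 6 down, and the KEGG pathway of that name had 8 of 23, all 8 up.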

How the data were processed

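Raw read counts per gene, as the authors deposited them, were the input for 6 libraries, with FPKM from the same deposited table used only to compare genes per length and within a library. The p-value and q-value of each gene and the term tables are as the authors deposited them. Per the submitters' processing notes, the tools included StringTie 1.3.3b, HISAT2 2.0.4 and edgeR. Not given in the sources used here are the genome build, the annotation, the strand setting and the counting options, and positions follow the deposited table.

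Counts were filtered with filterByExpr and tested with edgeR 4.0.16 (TMM, robust glmQLFit, glmQLFTest) in R 4.3.3 over 13724 genes, with Benjamini-Hochberg adjustment, a threshold of 0.05 and a two-sided test; SE is log2 fold change over root F. The fit was tested on simulated data. DESeq2 1.42.0, limma-voom (limma 3.58.1), other scalings and filters, a replicate block and leaving out each library were alternatives. The members and gene lists were chosen with earlier results of these data known. Every member is accounted for. From wider lists, up to 5 called genes with the smallest p per direction are named, with CDKN1A, CDK2, MYC, RB1, TOP2A and MKI67. CDKN1B, CDKN2A, CDKN2B, CDKN2C, CDKN2D, RBL2 and the single cell markers were added after their values were seen. Control replicate 3 has the title S4 and no control is titled S3. Promoter and protein sequences were not used here. Intervals of counting error were not computed, and floors cover counting error only.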

Additional observations from a re-analysis of the deposited data

How the results depend on the processing

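Over 15 other ways of processing, the median log2 fold change of the tested replication genes stayed positive. With total counts alone it was 1.13, with 1 gene called lower and 1630 of all genes called. DESeq2 called 2631 of all genes. Replicate numbers did not pair the libraries: deviations of same-numbered libraries correlated at -0.28, -0.20 and -0.23, and no high cuff pressure library matched its own number best. With the replicate block, 11 replication genes were called higher and 244 of all genes were called. When each library was left out in turn, edgeR called 0 to 28 replication genes higher and 0 to 1 lower, 0 to 2623 of all genes, and the median ran from 1.16 to 1.79. Where edgeR called 0 of all genes, without control replicate 2 or 3, 2691 and 2496 genes had an unadjusted p under 0.05; the cause was not tested. Of the 20 called genes, 11 were called in all 9 ways of processing that kept every library, and 17 had their lowest fold change without high cuff pressure replicate 3. The largest such shift in a called gene was 1.44 times on the log2 scale, in MCM2. Few control counts lie behind CCNE2 (3, 3 and 3), GINS3 (9, 14 and 0), MCM10 (1, 6 and 2), GINS4 (6, 8 and 9), POLE2 (4, 13 and 14) and GINS1 (6, 16 and 10).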

Other observations

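The rows called by DESeq2 and not by edgeR were 8 replication genes, ORC1, ORC6, MCM4, CDC7, PCNA, RFC2, RFC4 and FEN1. All of these had higher means under high cuff pressure, and all except RFC4 were separated between the groups. RFC4 read 5.32, 12 and 18.9 CPM against 4.10, 4.05 and 5.54 CPM, so high cuff pressure replicate 1 lay within the control range.

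The spans of 14 of the 46 replication genes overlap at least 1 other row of the deposited table. For 8 of these the overlapping rows had a summed mean of at least 1 CPM.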
